A study of Homo sapiens with 2 samples.

Results

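Ion channels and G protein-coupled receptors were examined in C4-2, a human prostate cancer line established from LNCaP, after vehicle or ebastine. One library of polyadenylated RNA came from cells given vehicle and 1 from cells given ebastine, an antihistamine that blocks the histamine H1 receptor. Both cultures were of the same line between passages 10 and 15, were grown with serum, and were left for 24 h to attach before the medium was exchanged. No source used here gives the dose, the exposure time or the composition of the vehicle. The genes were chosen by name prefix (potassium, calcium, sodium, chloride and TRP channels, ligand-gated channel subunits, GPR genes, and receptors for adrenaline, histamine, prostaglandin E, nucleotides, lysophosphatidic acid and sphingosine phosphate). The prefixes matched 26 of the 1947 genes in the deposited table: 16 channel subunits or CLC transporters, 9 receptors and 1 receptor kinase, ADRBK1, whose name begins like that of a receptor.

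Channels let ions cross a membrane, and their expression sets membrane potential, calcium entry and cell volume. G protein-coupled receptors turn an extracellular ligand into G protein signals, and receptor kinases and arrestins switch them off. Prostate epithelial cells are known for the cold-sensing channel TRPM8 and the calcium-selective channel TRPV6, and many antihistamines block the cardiac potassium channel hERG, which KCNH2 encodes.

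The values are FPKM, fragments per kilobase of transcript for each 1000000 mapped, so levels of different genes can be compared. With 1 library per group there was no replicate check, no SD and no test of any difference, and the sequencing depth is unknown. The table lists only genes with a deposited p-value under 0.05, which were 14.2% of the 13714 genes the authors tested; the authors' test was also made on 1 library per group and compares these libraries. Every listed gene therefore had to differ between the libraries, and a count of listed genes does not measure how a family responded. Among current names of protein-coding genes in RefSeq, 337 carried one of the prefixes and 23 of them (6.82%) were listed, beside 1824 of 20056 (9.09%) of all protein-coding names. How many of the 337 the authors tested is unknown. The other 3 listed genes carry older names (GPR56 is now ADGRG1, GPR126 is ADGRG6, ADRBK1 is GRK2). Of the markers of the luminal prostate cell, 6 of 12 were listed, 3 higher and 3 lower with ebastine. KLK3 and KLK2 were 1.55-fold and 1.71-fold lower (KLK3 from 2476 to 1599 FPKM), and ACPP, FOLH1 and STEAP2 were 2.04-fold, 1.70-fold and 1.56-fold higher; the part of this in the results below was not tested. Of the basal markers 0 of 6 were listed, and of the leukocyte and the neuronal or neuroendocrine markers 1 of 10 each (CD4, and ENO2, which was 1.64-fold lower). A marker outside the table may still be expressed.

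The promoter windows of 4 genes on which the results below turn are shown first: KCNN2 and S1PR3, the more abundant genes with the largest differences, CLCN7, the lysosomal member, and KCNH2. Each is the 250 bases before the most upstream start that RefSeq gives in the promoter table (build GRCh38.p14), written 5′ to 3′ on the strand of the gene, and capitals mark CACGTG and GGGCGG on either strand.
KCNN2, chr5:114361820-114362069, plus strand: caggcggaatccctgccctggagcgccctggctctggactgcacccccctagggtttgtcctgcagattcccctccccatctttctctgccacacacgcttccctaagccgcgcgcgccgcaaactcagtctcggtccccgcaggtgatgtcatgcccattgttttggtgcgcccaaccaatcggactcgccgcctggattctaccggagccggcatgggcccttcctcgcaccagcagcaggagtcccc
S1PR3, chr9:88990613-88990862, plus strand: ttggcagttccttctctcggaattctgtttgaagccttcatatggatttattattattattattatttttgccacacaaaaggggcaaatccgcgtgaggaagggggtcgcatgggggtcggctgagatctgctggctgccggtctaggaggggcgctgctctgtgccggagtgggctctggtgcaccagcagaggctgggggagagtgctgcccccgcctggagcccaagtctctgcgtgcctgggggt
CLCN7, chr16:1475029-1475278, minus strand: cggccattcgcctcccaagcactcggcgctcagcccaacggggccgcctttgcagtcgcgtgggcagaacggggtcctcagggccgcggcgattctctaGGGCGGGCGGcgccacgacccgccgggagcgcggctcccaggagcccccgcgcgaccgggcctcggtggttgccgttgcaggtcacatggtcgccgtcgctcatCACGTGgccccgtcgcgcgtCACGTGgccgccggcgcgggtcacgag
KCNH2, chr7:150978322-150978571, minus strand: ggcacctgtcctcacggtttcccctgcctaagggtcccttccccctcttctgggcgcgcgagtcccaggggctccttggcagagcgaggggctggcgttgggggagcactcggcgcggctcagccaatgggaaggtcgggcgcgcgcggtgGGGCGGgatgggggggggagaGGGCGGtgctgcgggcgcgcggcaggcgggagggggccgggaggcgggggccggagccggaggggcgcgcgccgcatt

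Of the 26 genes 19 had a RefSeq promoter window; GPR19, KCNG1, P2RY2 and KCNMB4 were among those with none in the table. Motifs were searched on both strands, and all promoters means 1 window for each gene name with a RefSeq promoter. These names outnumber the 20056 protein-coding names, so they are not all of coding genes, unlike the 19. The E-box CACGTG, the core of the element read by the lysosomal regulator TFEB, occurred in 2 of the 19 windows, those of CLCN7 and ADRA2A, and in 6.46% of all 27305 promoters. In the CLCN7 window it occurred at 2 positions. The GC box GGGCGG occurred in 12 of 19, KCNH2 among them, and in 42.2% of all promoters. The cyclic AMP response element TGACGTCA occurred in 1 window, that of CLCN3 (1.75% of all promoters), the androgen receptor half-site TGTTCT in 1, that of TRPV6 (12.4%), and the TATA box TATAAA in those of ADRA2A and TRPM8 (11.2%). The sterol element TCACNCCAC occurred in 0 of 19 windows and in 0.868% of all promoters. The windows had a median GC content of 71.2%, from 40.0% at TRPM8 to 82.8% at KCND3, beside 57.6% over all promoters. A match describes these letters and is not a bound site.

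More of the 26 genes were higher than lower in the ebastine library. Of the 26 genes 17 (65.4%) were higher with ebastine, beside 44.5% of all 1947 listed genes, and 9 were lower, beside 55.5%. Ratios are log2((ebastine + 1)/(vehicle + 1)) of the FPKM values, a scale that understates the ratio of low genes. Its median over the 26 genes was 0.33, a 1.26-fold ratio, beside -0.31 over all listed genes. The p-value limit removes the smallest ratios, so each median falls on the side with more genes and largely repeats these counts. The difference from the other listed genes was not tested. At 1.5-fold or more, S1PR3, KCNN2 and GABRG3 were higher (3 genes, 11.5%, beside 9.55% of all listed genes), and 0 were lower, beside 17.2%. In the authors' deposited table, 9 of the 26 (34.6%) had a q-value under 0.05, beside 41.0% of all listed genes. Of these, 8 were higher (beside 15.6% of all listed genes) and 1 was lower (beside 25.4%).

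**Figure D1:**
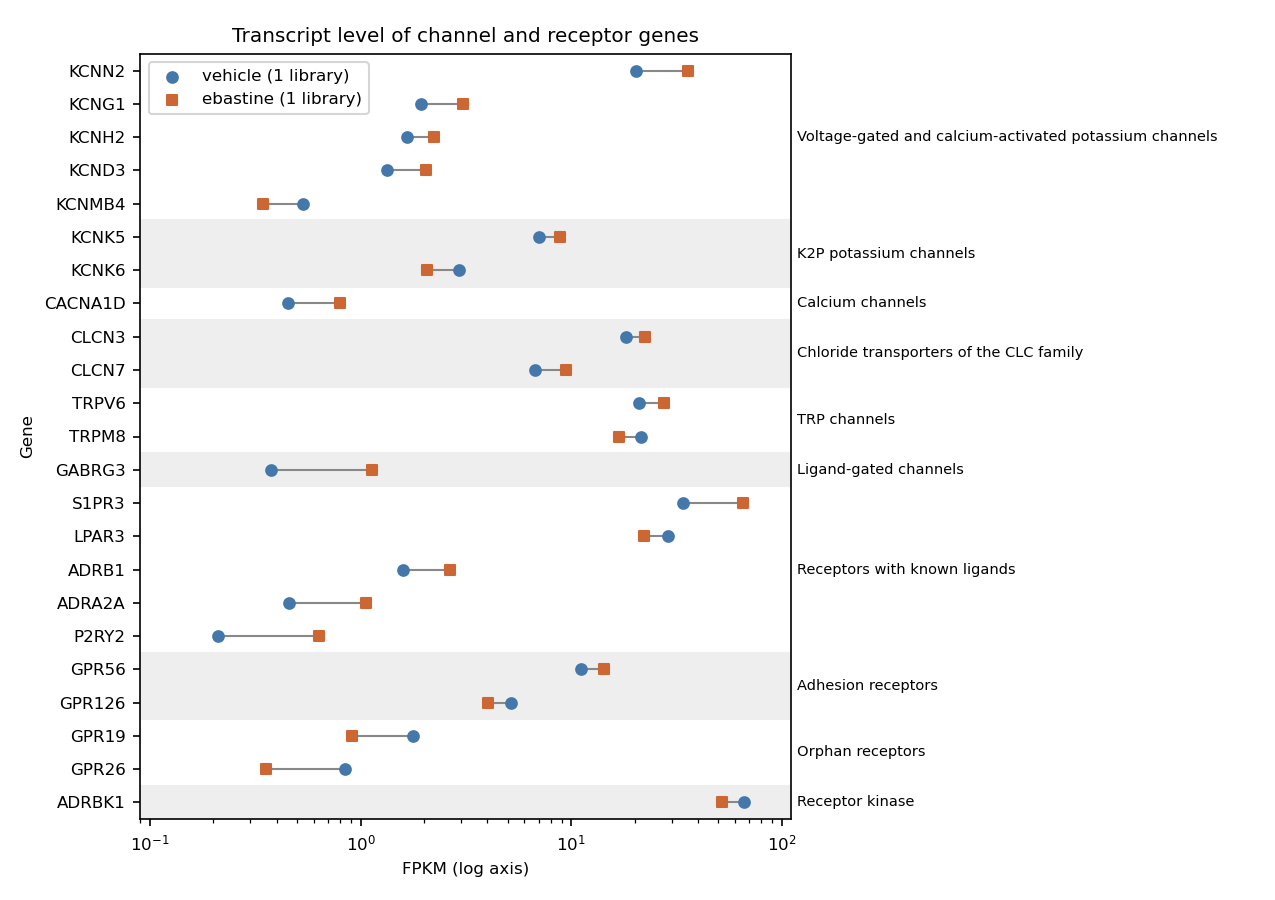
Level in FPKM of the 23 genes reported one by one, on a log axis, grouped by role, with a circle for the vehicle library and a square for the ebastine library (1 library each). The lines between them show 15 genes higher and 8 lower with ebastine, with S1PR3 at 65.1 FPKM the highest square.

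The levels covered a wide range. In the vehicle library the 26 genes ran from 0.210 FPKM (P2RY2) to 66.5 FPKM (ADRBK1), and in the ebastine library the 23 genes reported one by one ran from 0.343 FPKM (KCNMB4) to 65.1 FPKM (S1PR3). The other 3 genes enter the counts only. S1PR3 ranked 2 with vehicle, behind ADRBK1, and 1 with ebastine. KCNN2 moved from rank 6 to rank 3, while LPAR3 moved from rank 3 to rank 6 and TRPM8 from rank 4 to rank 7. Without replicates, neighbours in this order cannot be told apart by their spread. A mean under 1 FPKM was found for 8 of the 26 genes.

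The share of genes higher with ebastine was set beside that of listed genes of like level. At a mean under 1 FPKM, 5 of 8 of these genes were higher, beside 59.2% of the 179 listed genes at that level. From 1 to under 5 FPKM, 5 of 8 were higher, beside 47.7% of 461. At 5 FPKM or more, 7 of 10 were higher, beside 41.4% of 1307. The gap to the other listed genes was smallest among the low genes, where most listed genes were higher. None of these differences was tested.

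**Figure D2:**
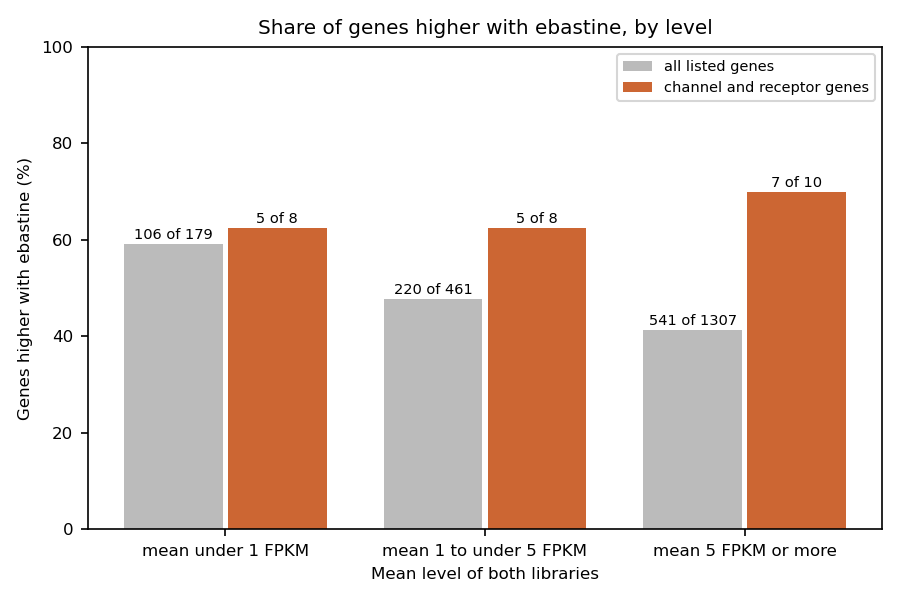
Percentage of genes higher with ebastine at 3 levels of mean FPKM, with grey bars for all listed genes and orange bars for the channel and receptor genes, and the counts above the bars. The grey bars fall from 59.2% to 41.4% with rising level, and the orange bars stand at 62.5%, 62.5% and 70.0%.

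Potassium channels made up the largest family among the 26 genes, and KCNN2 held most of the summed FPKM of those listed. Potassium channels repolarise the membrane. Of 96 current coding names with the prefix KCN 8 (8.33%) were listed, beside 9.09% of all coding names. Of these 8, 6 were higher and 2 lower, beside 44.5% and 55.5% of all listed genes. KCNN2 (hg19 chromosome 5, 113698016 to 114109110), the small-conductance channel SK2 that opens on a rise of intracellular calcium, had 20.3 FPKM in vehicle-treated and 36.0 FPKM in ebastine-treated cells. It was 1.74-fold higher, with a q-value of 0.00178 in the authors' deposited table, and had the 81st highest ratio of the 1947 genes. It held 55.5% of the summed FPKM of the 8 listed potassium channels with vehicle and 64.2% with ebastine. The other 7 summed to 16.2 FPKM with vehicle and 20.03 FPKM with ebastine. Potassium channels that were not listed have no value here and do not enter these sums.

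Voltage-gated potassium channels were low, and KCNH2, KCNG1 and KCND3 were higher with ebastine. KCNH2 (chromosome 7, 150642044 to 150675402), which encodes hERG, had 1.65 FPKM in vehicle-treated and 2.22 FPKM in ebastine-treated cells. Its ratio was 0.28 on the log2 scale, where it ranked 832 among the 867 listed genes that were higher. That scale understates the ratio of low genes, and without a pseudocount KCNH2 was 1.34-fold higher. Its deposited q-value was 0.317. KCNH2 thus showed a small difference, which the authors' q-value did not separate. KCNG1, a modifier subunit that forms channels only with partners, stood at 1.93 and 3.05 FPKM. KCND3, a subunit of rapidly inactivating channels, stood at 1.34 and 2.05 FPKM. The deposited q-values of KCNG1 and KCND3 were 0.0631 and 0.119.

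The remaining potassium channel genes went both ways. KCNK5, the background channel TASK-2 of the K2P family, had 7.03 FPKM in vehicle-treated and 8.86 FPKM in ebastine-treated cells. KCNK6 of the same family stood at 2.93 and 2.07 FPKM. KCNMB4, an auxiliary subunit of the large-conductance calcium-activated channel, stood at 0.533 and 0.343 FPKM. The RefSeq gene of KCNK6 overlaps the coding gene YIF1B, so its reads may be shared. The deposited q-values of KCNK5, KCNK6 and KCNMB4 were 0.316, 0.188 and 0.317.

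The listed calcium channel gene was near the lower limit of the table. CACNA1D, the pore-forming subunit of an L-type calcium channel, had 0.452 FPKM in vehicle-treated and 0.799 FPKM in ebastine-treated cells, a 1.77-fold ratio of the FPKM values without a pseudocount. Its deposited q-value was 0.0357, and its RefSeq gene overlaps that of CHDH.

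Both listed CLC genes, which encode chloride-proton exchangers of intracellular membranes, were higher, beside 44.5% of all listed genes. Of 9 current coding names with the prefix CLCN, 2 were listed. CLCN7 (chromosome 16, 1494934 to 1525085), the exchanger of the lysosome, had 6.72 FPKM in vehicle-treated and 9.46 FPKM in ebastine-treated cells, 1.36-fold higher, with a deposited q-value of 0.0346. CLCN3, an exchanger of endosomes, stood at 18.1 and 22.4 FPKM with a deposited q-value of 0.297. CLCN7 is the gene whose promoter window above held CACGTG at 2 positions, and the window of CLCN3 held none.

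The calcium-permeable TRP channels stood at like levels with vehicle and on either side with ebastine. TRPV6 (chromosome 7, 142568960 to 142583490) had 20.9 FPKM in vehicle-treated and 27.7 FPKM in ebastine-treated cells. TRPM8 (chromosome 2, 234826043 to 234928166), which is androgen-dependent in prostate cells, stood at 21.4 and 16.8 FPKM. Their log2 ratios were 0.39 and -0.33, and their deposited q-values 0.129 and 0.199. GABRG3, a subunit of the ionotropic GABA receptor and the only listed ligand-gated channel among the prefixes, stood at 0.376 and 1.13 FPKM. Its ratio was 1.55-fold with the pseudocount and 3.003-fold without it, with a deposited q-value of 0.0285.

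**Figure D3:**
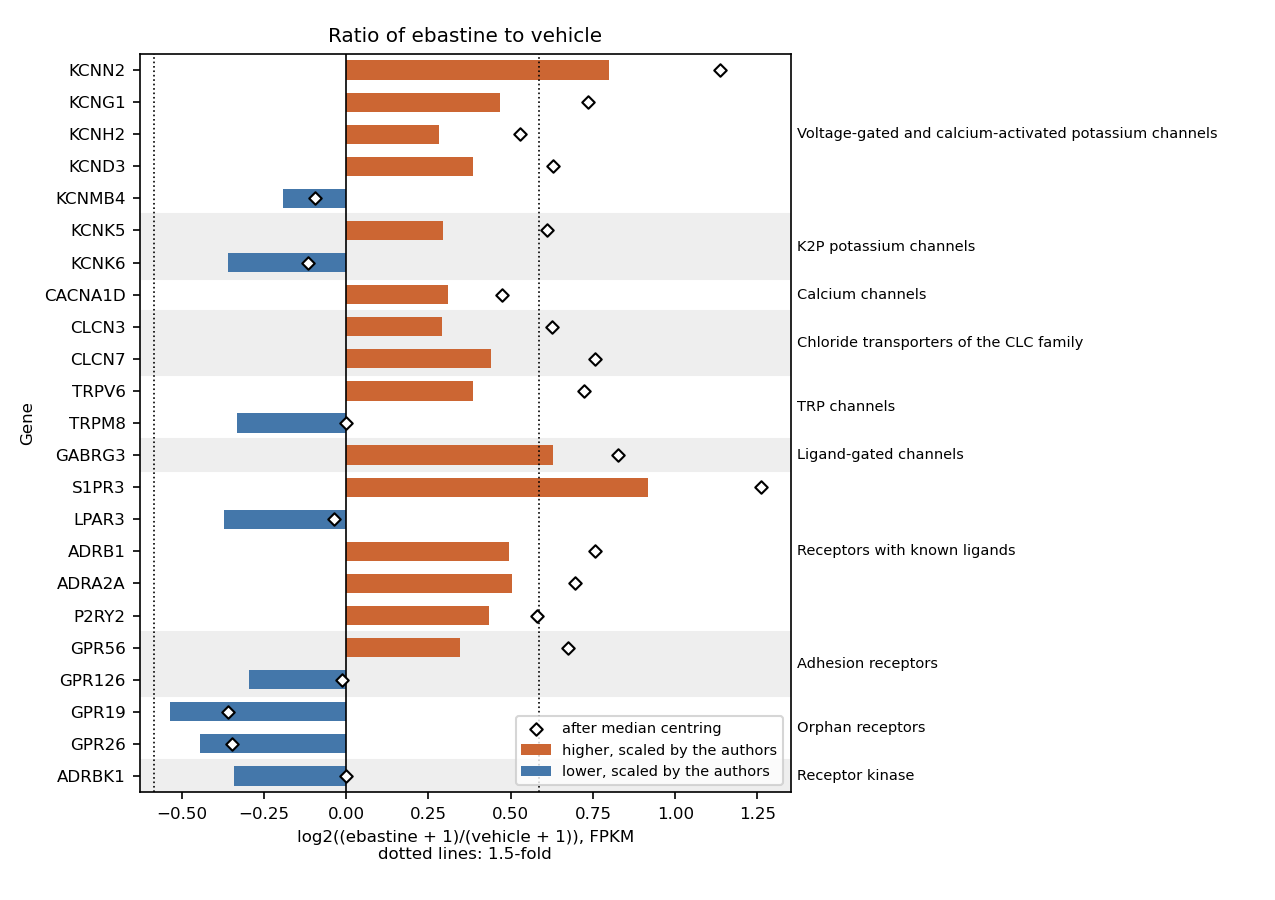
Bars give log2((ebastine + 1)/(vehicle + 1)) of FPKM for each of the 23 genes under the authors' scaling, orange for higher and blue for lower, and diamonds the same ratio after median centring. S1PR3 at 0.92 and KCNN2 at 0.80 are the longest bars, and the diamonds of ADRBK1, TRPM8, GPR126 and LPAR3 lie within 0.05 of 0.

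Of the receptors for lysophospholipids, S1PR3 was higher and LPAR3 lower. S1PR3 (chromosome 9, 91605778 to 91620069), a receptor for sphingosine 1-phosphate that couples to several G proteins, had 34.0 FPKM in vehicle-treated and 65.1 FPKM in ebastine-treated cells. It was 1.89-fold higher, the largest ratio with the pseudocount among the 26 genes and the 44th highest of the 1947, with a deposited q-value of 0.00178. LPAR3 (chromosome 1, 85279086 to 85358896), a receptor for lysophosphatidic acid, stood at 28.9 and 22.1 FPKM, 1.29-fold lower, with a deposited q-value of 0.151. The receptors were thus at similar levels with vehicle and 2.94-fold apart with ebastine, as FPKM. Of the other current coding names, 0 of 4 with the prefix PTGER (prostaglandin E receptors) were listed.

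Adrenergic and nucleotide receptors were low and all 3 listed ones were higher, beside 44.5% of all listed genes. At a mean under 1 FPKM, the level of ADRA2A and P2RY2, 59.2% of listed genes were higher. From 1 to under 5 FPKM, the level of ADRB1, 47.7% were. ADRB1, the beta-1 receptor that activates adenylyl cyclase, had 1.59 FPKM in vehicle-treated and 2.65 FPKM in ebastine-treated cells (deposited q-value 0.0324). ADRA2A, the alpha-2A receptor that inhibits the same enzyme, stood at 0.455 and 1.07 FPKM (0.00466). P2RY2, a receptor for extracellular ATP and UTP, stood at 0.210 and 0.634 FPKM (0.207). ADRBK1 (chromosome 11, 67033905 to 67054029), the kinase that marks activated receptors for arrestin, stood at 66.5 and 52.2 FPKM, 1.27-fold lower, with a deposited q-value of 0.179.

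Adhesion receptors went both ways and the listed orphan receptors were lower, beside 55.5% of all listed genes. GPR56, an adhesion receptor that binds matrix proteins, had 11.1 FPKM in vehicle-treated and 14.4 FPKM in ebastine-treated cells. GPR126, an adhesion receptor known for its part in myelination, stood at 5.17 and 4.02 FPKM. Neither had a deposited q-value under 0.05 (0.204 and 0.214). GPR19, whose ligand is not established, stood at 1.77 and 0.908 FPKM, with a deposited q-value of 0.0570. GPR26, also an orphan, stood at 0.845 and 0.355 FPKM, a 2.38-fold lower ratio of FPKM values. GPR26 was the only one of the 9 lower genes with a deposited q-value under 0.05 (0.00178).

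**Figure D4:**
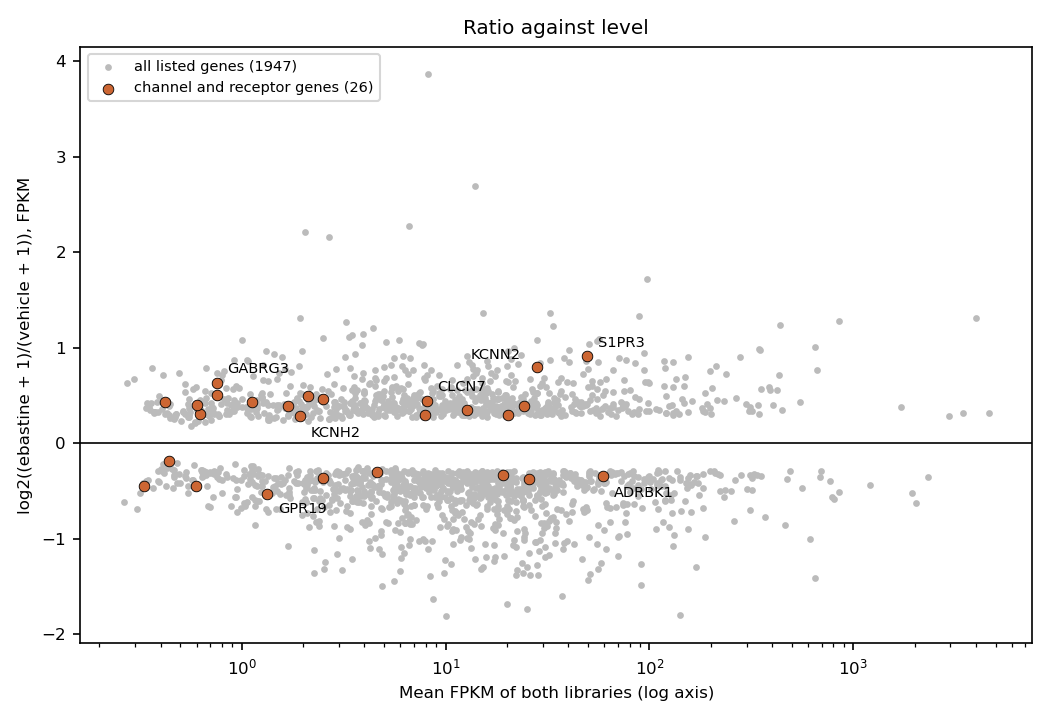
Log2 ratio of ebastine to vehicle against the mean FPKM on a log axis, with grey points for the 1947 listed genes and orange points for the 26 channel and receptor genes. The empty strip around 0 is the effect of the p-value limit of the table, and S1PR3 and KCNN2 are the highest of the orange points.

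HRH1 and the other histamine receptors were not listed and have no value here. Of a list of 11 genes drawn up for ebastine targets and metabolism, 3 (27.3%, beside 9.09% of all coding names) were listed. Each of them was higher, beside 44.5% of all listed genes. EBP, an isomerase of sterol synthesis, stood at 84.1 and 112.7 FPKM, and CYP2J2, a cytochrome that oxidises ebastine, at 5.27 and 7.11 FPKM. Whether ebastine acts on EBP was not tested. The other was KCNH2, already counted among the 26. None of the 3 had a deposited q-value under 0.05.

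Lists of genes that carry receptor and calcium signals inside the cell are given beside the 9.09% of all coding names that were listed. Of 28 G protein subunits 2 (7.14%) were listed: the beta subunit GNB4 stood at 14.4 and 7.14 FPKM, 1.89-fold lower, and the gamma subunit GNG7 at 3.24 and 4.77 FPKM. Of 29 receptor regulators 3 (10.3%) were listed, all 3 lower, beside 55.5% of all listed genes. They were RGS2 at 9.24 and 6.71 FPKM, RGS14 at 20.1 and 15.7 FPKM, and ADRBK1, already counted among the 26. After median centring their log2 ratios were -0.10, -0.0076 and -0.00064. Of 36 messenger enzymes 2 (5.56%) were listed, the protein kinase C gene PRKCH at 10.4 and 17.9 FPKM and the phosphodiesterase gene PDE3B at 4.07 and 3.18 FPKM. Of 28 genes of calcium stores and pumps 5 (17.9%) were listed, 4 higher and 1 lower, beside 44.5% and 55.5% of all listed genes. The plasma membrane calcium pump ATP2B1 was 1.61-fold higher (11.3 against 18.8 FPKM) and the calmodulin gene CALM3 was 1.39-fold lower (106 against 75.9 FPKM). GNB4, GNG7, PRKCH, ATP2B1 and CALM3 had deposited q-values under 0.05.

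The scaling of the libraries and the pseudocount changed how many of the 26 genes passed 1.5-fold. Median centring multiplied the ebastine values by 1.27, a shift of 0.35 on the log2 scale. Listed genes averaging 10 FPKM or more then had a median ratio of 0. All listed genes had passed the p-value limit, so the centring rests on genes picked for differing. Genes lower by about the size of the shift come to lie near 0 by construction. Median centring put 13 genes at 1.5-fold or more higher and 0 lower, beside 39.0% higher and 6.37% lower of all listed genes. Upper quartile rescaling put 7 higher and 0 lower, beside 23.4% and 9.76%. After centring 17 of the 26 were higher and 9 lower, beside 49.9% and 50.1% of all listed genes. The gap to the other listed genes was thus narrower than under the authors' scaling. Only the 9 lower genes could have turned, since centring raised the ebastine values, and none did. However, ADRBK1, TRPM8, GPR126 and LPAR3 lay at log2 ratios of -0.00064, -0.00035, -0.012 and -0.037. With a pseudocount of 0.1 FPKM, 10 were higher and 3 lower by 1.5-fold, beside 18.5% and 25.6% of all listed genes.

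The low genes took a small share of the fragments. The FPKM multiplied by the length of the longest coding transcript in GENCODE release 29 estimates the fragments per 1000000 mapped. By this measure 12 of the 26 genes were under 10 fragments in both libraries. P2RY2 stood at 0.558 with vehicle and 1.69 with ebastine, and KCNH2 at 7.09 and 9.53, whereas S1PR3 stood at 289 and 554 and KCNN2 at 83.2 and 147.5. Which transcripts the cells make is not known, so these are upper estimates within that annotation, and with the depth unknown they give no number of fragments counted. In such bulk libraries, fewer cells that express a gene and less RNA per cell cannot be told apart.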

How the data were processed

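RNA sequencing of 2 libraries was deposited as 1 table of gene-level values. TopHat2, Cuffdiff and hg19 are named, without versions or roles, in the submitters' processing notes. Per the file headers, the authors' table holds an FPKM value for each library, the authors' log2 fold change, the authors' test statistic (a score), and a p-value and a q-value per gene. No source used here gives the gene models, the strand setting or the scaling. The number of genes tested by the authors was worked out from the deposited q-value at the smallest p-value, 5e-05. Positions start from 0 in the file and were converted.

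Ratios, counts and medians were computed with Python 3.11.15, pandas 2.3.3 and numpy 2.4.6 and tested on simulated data. No filter on low values was used. Only 3 genes had a mean under 0.3 FPKM, too few to find the step of 1 read, so no interval can be given. The genes and lists were chosen with earlier results of these data known. Each gene matching the prefixes may be named, except that 3 are not reported here beyond the counts, with KCNH2 and HRH1 always, and up to 4 genes of each list by size of ratio; older names were matched. KLK3 was named after its values were seen. Alternatives were pseudocounts of 0.1 and 5 FPKM, a minimum mean of 1 FPKM, 3 rescalings, a limit of 2-fold, the authors' q-value under 0.05 and leaving out genes that are not channels or receptors.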

Additional observations from a re-analysis of the deposited data

How the results depend on the processing

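The counts of 17 higher and 9 lower genes were the same with pseudocounts of 0.1 and 5 FPKM and with all 3 rescalings; they became 12 and 6 at a mean of at least 1 FPKM (43.0% and 57.0% of all listed genes), and 8 and 1 among genes with a deposited q-value under 0.05 (38.05% and 61.95%). The median log2 ratio of 0.33 became 0.40 and 0.13 with pseudocounts of 0.1 and 5 FPKM, 0.32 at a mean of at least 1 FPKM, 0.60 after median centring, 0.49 after upper quartile rescaling, 0.50 at a q-value under 0.05 and 0.35 without ADRBK1, an alternative chosen after seeing the data. The 3 genes at 1.5-fold or more higher became 10, 13 and 7 with the pseudocount of 0.1 FPKM, centring and upper quartile rescaling, and 0 at 2-fold; the 0 lower became 3 with the pseudocount of 0.1 FPKM. Of all listed genes, 9.55% were 1.5-fold or more higher, which became 18.5% and 4.31% with pseudocounts of 0.1 and 5 FPKM, 39.0% after centring, 23.4% after upper quartile rescaling, 20.2% at a q-value under 0.05 and 1.64% at 2-fold. The 17.2% lower became 9.19% with a pseudocount of 5 FPKM, 6.37% after centring, 9.76% after upper quartile rescaling, 37.8% at a q-value under 0.05 and 4.42% at 2-fold. The 26 channel and receptor genes kept their directions, but this was largely fixed in advance. A pseudocount or a minimum mean cannot turn a gene, and the 3 rescalings multiplied the ebastine values by 1.001, 1.15 and 1.27. Only the 9 lower genes could have turned under rescaling, and none did. Leaving out GPR genes that are not receptors and CLIC genes removed no gene. No paired analysis was possible because each group held 1 library.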

Other observations

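Some channels and receptors outside the prefixes were also listed. Of all listed genes 44.5% were higher and 55.5% lower, and 9.09% of all coding names were listed. Of a list of 75 other channel genes 8 (10.7%) were listed, 6 higher and 2 lower. GRIN3A, a subunit of the NMDA glutamate receptor, had 4.68 FPKM in vehicle-treated and 10.6 FPKM in ebastine-treated cells, 2.05-fold higher, with a q-value of 0.00178 in the authors' deposited table, and GRIN2C of the same receptor stood at 11.8 and 15.3 FPKM. FXYD3 and FXYD5, regulators of the sodium pump, stood at 11.4 and 15.2 FPKM and at 2.78 and 4.43 FPKM. Of 129 other G protein-coupled receptors 9 (6.98%) were listed, 5 higher and 4 lower, and none had a deposited q-value under 0.05. The somatostatin receptor SSTR5 stood at 2.62 and 3.72 FPKM, the adhesion receptor BAI2 at 7.64 and 10.1 FPKM, the growth hormone releasing hormone receptor GHRHR at 0.786 and 0.366 FPKM and the incretin receptor GLP1R at 0.217 and 0.527 FPKM. After median centring 7 of these 9 receptors were higher, beside 49.9% of all listed genes. So were 7 of the 8 genes from the channel list, which include FXYD3 and FXYD5, not channels themselves.

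In 4 pairs of related genes among the 26, 1 gene was higher and the other lower: S1PR3 and LPAR3, TRPV6 and TRPM8, KCNK5 and KCNK6, and GPR56 and GPR126. The pairs were formed after the values were seen. The directions held after median centring, which raised the ebastine values and so could have turned only the lower genes. The sizes depend on the scaling. LPAR3, TRPM8 and GPR126 then lay at log2 ratios of only -0.037, -0.00035 and -0.012.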
